A study of Homo sapiens with 10 samples.

Results

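The genes described here are 10 feedback inhibitors and transcriptional targets of the extracellular signal-regulated kinase (ERK) pathway, named DUSP1, DUSP4, DUSP5, DUSP6, SPRY2, SPRY4, SPRED1, PHLDA1, ETV5 and IER3. They were taken by name through their Ensembl identifiers, and 10 of 10 were found among the 14054 genes of the table and among the 10968 genes that were tested. The libraries came from MRC5, an established line of human lung fibroblasts, which received medium conditioned by A549, a line from a human lung adenocarcinoma. With 5 libraries the medium came from non-stretched A549 cells (static medium) and with 5 from mechanically stretched A549 cells (stretch medium). The sample descriptions give 24 hours and the series design 6 hours for the exposure, and this difference was not resolved. Both groups had A549-conditioned medium, so there was no group with fresh medium, and each cell line is 1 line. The series asks whether stretched epithelial cells activate fibroblasts through what they secrete, and the comparison of static and stretch medium addresses the fibroblasts' side of that question.

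ERK is the last kinase of a cascade that runs from growth factor receptors through RAS, RAF and MEK. Active ERK induces genes within minutes to hours, and several of them encode proteins that switch the cascade off again: dual-specificity phosphatases (DUSPs) remove the activating phosphates from ERK and related kinases, while Sprouty and SPRED proteins act upstream, at RAS and RAF. In fibroblasts the cascade is known for relaying growth factor signals into proliferation. The messenger RNA of such genes is widely used as a readout of ERK signalling, but kinase activity and protein were not measured here.

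No gene of the 10 passed the test over all genes, and the set had no common direction. In edgeR's quasi-likelihood test with Benjamini-Hochberg adjustment, 0 of the 10 had an adjusted p under 0.05, where the background over all genes tested was 0%. At an unadjusted p under 0.05 there was 1 of 10, DUSP4, against 16.4% of all genes tested. The fitted log2 fold change (stretch minus static medium) was above 0 for 5 of 10, against 50.1% of all genes, and the median over the 10 was 0.036, against 0.00 over all genes. DESeq2 called 0 of the 10, against 2.51% of all genes. The nuclear phosphatase genes DUSP1, DUSP4 and DUSP5 and the early response gene IER3 had estimates of 0.24 to 0.57, whereas SPRY4, SPRED1, PHLDA1 and ETV5 had estimates of -0.58 to -0.13. DUSP6 and SPRY2 lay closest to 0, at 0.08 and -0.01.

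**Figure D1:**
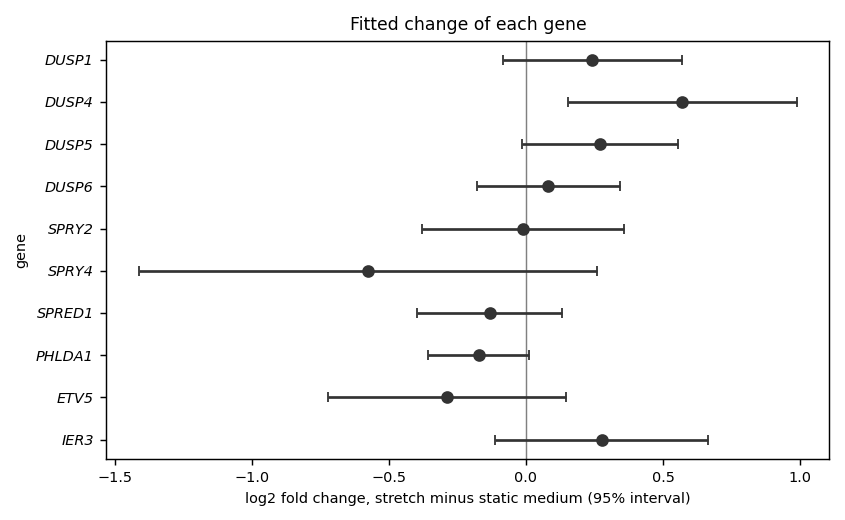
Fitted log2 fold change of each of the 10 genes (horizontal axis, stretch minus static medium) with its 95% interval from edgeR; points are estimates from 5 libraries per group. The interval of DUSP4 lies above 0 (0.15 to 0.99) and the intervals of the other 9 genes include 0.

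Sequence around an annotated start was available for 6 of the 10 genes in RefSeq (GRCh38.p14), from 250 bases before to 50 after the start. Only the first start listed for each gene was used. The DUSP1 window holds the start of the GENCODE gene bounds given below. Those of DUSP6, SPRY4, SPRED1 and PHLDA1 lie inside the gene bounds, and that of SPRY2 lies outside them. Motif matches and positions hold for these starts only. Those of DUSP1, SPRY2 and PHLDA1 are shown because they carry, between them, the cyclic AMP response element (CRE) and an element of ETS factors. CREB-type factors act through the CRE, and the ETS family includes direct ERK substrates. Capitals mark every match, on either strand, to the CRE TGACGTCA, to its shorter form TGACG, which it contains, and to the ETS form CCGGAA. The shorter ETS core GGAA was neither marked nor counted.

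DUSP1, minus strand, chr5:172771146-172771445: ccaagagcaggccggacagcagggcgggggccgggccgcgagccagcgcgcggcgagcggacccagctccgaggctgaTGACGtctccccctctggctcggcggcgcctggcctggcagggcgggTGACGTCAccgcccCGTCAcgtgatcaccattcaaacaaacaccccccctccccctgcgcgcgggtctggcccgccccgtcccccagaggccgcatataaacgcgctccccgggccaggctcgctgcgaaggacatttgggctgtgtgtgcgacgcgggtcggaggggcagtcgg

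SPRY2, minus strand, chr13:80341077-80341376: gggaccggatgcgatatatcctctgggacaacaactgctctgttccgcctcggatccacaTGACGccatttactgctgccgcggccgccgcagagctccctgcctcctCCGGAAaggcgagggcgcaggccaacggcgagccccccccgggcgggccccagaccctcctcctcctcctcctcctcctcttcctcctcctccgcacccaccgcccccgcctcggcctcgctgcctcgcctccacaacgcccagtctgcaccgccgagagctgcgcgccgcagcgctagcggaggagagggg

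PHLDA1, minus strand, chr12:76031727-76032026: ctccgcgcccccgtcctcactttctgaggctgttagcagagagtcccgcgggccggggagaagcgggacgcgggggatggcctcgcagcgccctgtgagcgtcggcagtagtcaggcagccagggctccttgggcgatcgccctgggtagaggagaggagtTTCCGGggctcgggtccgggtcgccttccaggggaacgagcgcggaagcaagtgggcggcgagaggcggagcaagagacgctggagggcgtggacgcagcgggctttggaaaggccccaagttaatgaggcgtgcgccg

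The full CRE was found in 1 of the 6 sequences, that of DUSP1, where it begins at position -125 from the start, and in 1.85% of 35116 RefSeq windows of the same length. The short form was in 3 of 6 (DUSP1, SPRY2 and SPRY4) and in 24.6% of all windows. The ETS form CCGGAA was in 2 of 6 (SPRY2 at -142 and PHLDA1 at -89) and in 17.2% of all windows. The AP-1 element TGANTCA and the CArG box bound by serum response factor were in 0 of 6, and in 7.71% and 1.29% of all windows. A match of letters is not a binding site, and the absence of one says only that these letters are not in these windows. DUSP6 and SPRED1 held no match to any of these motifs as spelled here, although both windows hold the shorter GGAA.

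Total counts ran from 4231653 to 8455073 per library, with 3 counts, taken as the floor, worth between 0.354 and 0.679 CPM. CPM are counts scaled to a common library size with edgeR's TMM factors. SPRY4 was the only one of the 10 near this floor, with 5 to 32 counts per library, and DUSP4 had 19 to 84. The other 8 genes had 212 or more in each library. Of 12 fibroblast markers, 12 were in the table, and their summed level was 15832 to 17631 CPM with static and 14207 to 17616 CPM with stretch medium. Of 20 markers of A549 and lung epithelium 11 were in the table, with summed levels of 335 to 438 and 360.3 to 488 CPM. Most of that sum was AKR1C1, at means of 338 and 369.5 CPM, while the epithelial adhesion gene EPCAM was at 2.81 and 2.80 CPM. The keratin gene KRT18 was at 11.2 and 14.6 CPM (edgeR adjusted p = 0.276), KRT19 at 11.7 and 12.8 CPM and CLDN4 at 6.76 and 7.85 CPM. Of the 8 tested markers of this list, 6 had estimates above 0 and 2 below, against 50.1% of all genes above 0. At an unadjusted p under 0.05 there was 1, against 16.4% of all genes. Of 6 endothelial and 6 leukocyte markers, 4 and 3 were in the table, and the defining genes CDH5 and PTPRC were not analysed here. The leukocyte sum, 195 to 209.8 and 183 to 233 CPM, was mostly CD68, at means of 199 and 202 CPM. The part of these markers in the results below was not tested. In bulk RNA, more cells expressing a gene and more RNA per cell cannot be told apart. The kit amplifies short targets, so CPM of different genes are not on a common scale. For the 10 genes, CPM are compared between libraries for 1 gene. The marker sums above mix genes and only describe the lists.

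**Figure D2:**
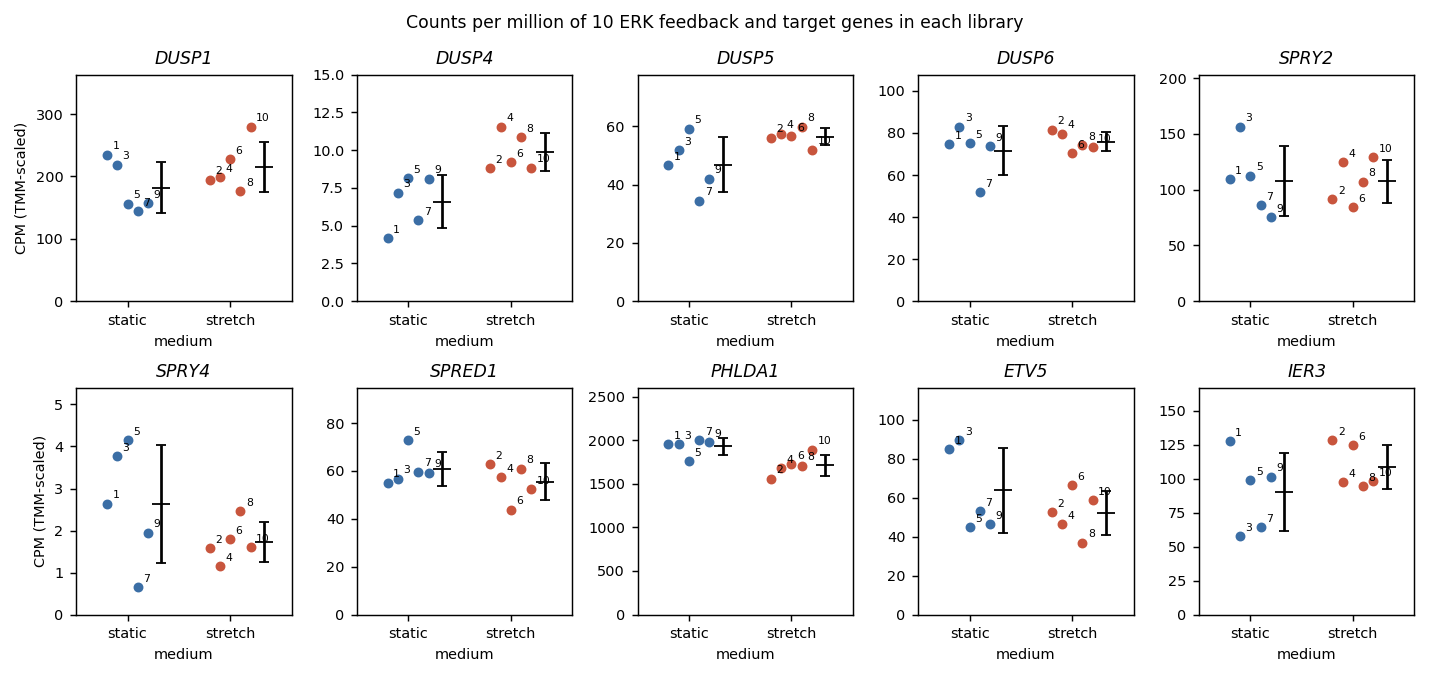
CPM (vertical axis, from 0) of each gene in the 5 static and 5 stretch libraries; points are libraries with their title numbers, and the bar beside each group is the mean ± SD. For DUSP4 the stretch libraries, at 8.83 to 11.5 CPM, lie above all static libraries, at 4.18 to 8.15 CPM, and for PHLDA1 all stretch libraries but stretch 10 lie below the static ones.

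DUSP1, DUSP4 and DUSP5 encode phosphatases of the nucleus. DUSP4 (ENSG00000120875, GRCh38 chromosome 8, 29333064 to 29350668, minus strand) acts on ERK, JNK and p38. Its level in static 1, 3, 5, 7 and 9 was 4.18, 7.19, 8.15, 5.35 and 8.12 CPM, and in stretch 2, 4, 6, 8 and 10 it was 8.83, 11.5, 9.22, 10.9 and 8.84 CPM. The groups did not overlap, which held for 1 of the 10 genes and for 3.72% of all genes tested, and the gap between the highest static and the lowest stretch library was small. Means were 6.60 ± 1.77 and 9.86 ± 1.26 CPM (SD, n = 5 each), static first, or 1.48-fold with an interval of 1.11 to 1.98. The log2 fold change was 0.57 ± 0.20 (SE), with an adjusted p of 0.176 in edgeR, 0.112 in DESeq2 and 0.164 in limma-voom. The exact two-sided permutation test of log2 CPM gave p = 0.00794, the smallest that 5 against 5 libraries allow. Because counts were low, chance in counting alone would give a coefficient of variation (CV) of about 15.8% with static and 13.4% with stretch medium, beside 26.8% and 12.8% observed. When each library was thinned to 4231653 counts, in 1 draw, the DUSP4 groups overlapped (exact permutation p = 0.0952) and its estimate was 0.44.

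DUSP5 (ENSG00000138166, chromosome 10, 110497838 to 110511544, plus strand), which is selective for ERK and is itself an ERK target, was at 46.6, 51.8, 59.2, 34.5 and 42.0 CPM in static 1, 3, 5, 7 and 9. With stretch medium it was at 56.1, 57.5, 56.7, 59.8 and 52.0 CPM in stretch 2, 4, 6, 8 and 10. The stretch libraries were tightly grouped near the top of the static range, each above the static median, and static 5 lay among them. The means were 46.8 ± 9.40 and 56.4 ± 2.84 CPM (SD, n = 5 each), and the log2 estimate was 0.27 ± 0.13 (edgeR adjusted p = 0.325, exact permutation p = 0.0635). As static 5 was the only static library above any stretch library, leaving it out necessarily left no overlap. The share of all genes for which leaving out a library does so was not computed. Without static 5 the estimate was 0.37, with an adjusted p of 0.232 in edgeR. The CV over libraries was 20.1% with static and 5.03% with stretch medium, the latter close to the 5.58% that counting alone would give; this difference in spread was not tested.

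DUSP1 (ENSG00000120129, chromosome 5, 172768090 to 172771195, minus strand), an immediate early phosphatase that acts on p38 and JNK as well as ERK, was at 235, 219, 156, 144 and 157 CPM in static 1, 3, 5, 7 and 9. It was at 195, 199, 228, 176 and 279 CPM in stretch 2, 4, 6, 8 and 10. Static 1 and 3 lay among the stretch libraries, and static 5, 7 and 9 lay below all of them. The means were 182 ± 41.4 and 215 ± 40.3 CPM (SD, n = 5 each), and the log2 estimate was 0.24 ± 0.15 (edgeR adjusted p = 0.452, exact permutation p = 0.206). Without stretch 10 the DUSP1 estimate was 0.13 and without static 1 it was 0.35.

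DUSP6 (ENSG00000139318, chromosome 12, 89347232 to 89353271, minus strand) encodes the cytoplasmic phosphatase that is specific for ERK and a much used transcriptional marker of the pathway. It was at 74.7, 82.9, 75.0, 51.8 and 73.7 CPM in static 1, 3, 5, 7 and 9, and at 81.5, 79.7, 70.3, 74.3 and 73.3 CPM in stretch 2, 4, 6, 8 and 10. All libraries except static 7 lay between 70.3 and 82.9 CPM. The means were 71.6 ± 11.7 and 75.8 ± 4.62 CPM (SD, n = 5 each), or 1.06-fold with an interval of 0.883 to 1.27 (adjusted p = 0.784 in edgeR). The upper bound leaves room for a change of up to 1.27-fold. Without static 7 the DUSP6 estimate changed sign, from 0.08 to -0.016.

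The Sprouty and SPRED genes encode membrane-associated inhibitors that act between the receptors and RAF. SPRY2 (ENSG00000136158, chromosome 13, 80335976 to 80340951, minus strand) was at 109, 156, 112, 86.0 and 75.2 CPM in static 1, 3, 5, 7 and 9 and at 91.6, 125, 84.2, 107 and 129 CPM in stretch 2, 4, 6, 8 and 10. The stretch libraries lay inside the static range. The means were 108 ± 31.3 and 107 ± 19.6 CPM (SD, n = 5 each), and the log2 estimate was -0.01 (interval -0.38 to 0.36, edgeR adjusted p = 0.982). The SPRY2 estimate was 0.16 without static 3.

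SPRY4 (ENSG00000187678, chromosome 5, 142310427 to 142326455, minus strand) was at 2.64, 3.77, 4.15, 0.653 and 1.95 CPM in static 1, 3, 5, 7 and 9 and at 1.58, 1.15, 1.79, 2.46 and 1.61 CPM in stretch 2, 4, 6, 8 and 10. All stretch libraries lay within the range set by static 7 and static 5. The log2 estimate was -0.58 ± 0.39 (interval -1.41 to 0.26, edgeR adjusted p = 0.481), and DESeq2 gave SPRY4 no adjusted p. As a fold the interval reached from 0.376 to 1.20. Without static 7 the SPRY4 estimate was -0.84 and its adjusted p 0.296 in edgeR, and without static 5 the estimate was -0.35.

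SPRED1 (ENSG00000166068, chromosome 15, 38252326 to 38357249, plus strand), which brings the RAS inactivator neurofibromin to the membrane, was at 55.2, 56.7, 72.9, 59.6 and 59.3 CPM in static 1, 3, 5, 7 and 9. It was at 62.9, 57.3, 43.7, 61.0 and 52.4 CPM in stretch 2, 4, 6, 8 and 10. The groups overlapped, with static 5 the highest library and stretch 6 the lowest. The log2 estimate for SPRED1 was -0.13 ± 0.13 (interval -0.40 to 0.13, edgeR adjusted p = 0.627).

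Of the targets that are not inhibitors of the cascade, PHLDA1 (ENSG00000139289, chromosome 12, 76025447 to 76033932, minus strand), a pleckstrin homology-like domain protein linked to cell survival, had the smallest CV of the 10 with static medium, 4.95%. It was at 1951, 1953, 1761, 2000.4 and 1974 CPM in static 1, 3, 5, 7 and 9 and at 1556, 1681, 1723, 1708 and 1890.2 CPM in stretch 2, 4, 6, 8 and 10. Of the stretch libraries 4 lay below the lowest static library, static 5, and 5 lay below the static median. The means were 1928 ± 95.4 and 1712 ± 119.6 CPM (SD, n = 5 each), or 0.888-fold with an interval of 0.781 to 1.01. The exact two-sided permutation test gave p = 0.0159, while adjustment over all genes left p = 0.339 (edgeR) and p = 0.271 (DESeq2). The PHLDA1 estimate was below 0 in each of 19 alternatives, from -0.21 to -0.14. Static 5 and stretch 10 alone made the groups overlap, so leaving out either of them necessarily left no overlap. How many of all genes lose their overlap when a library is left out was not computed.

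ETV5 (ENSG00000244405, chromosome 3, 186046308 to 186110318, minus strand), an ETS transcription factor of the PEA3 group, was at 84.8, 89.5, 44.7, 53.1 and 46.4 CPM in static 1, 3, 5, 7 and 9. It was at 52.5, 46.4, 66.4, 36.8 and 58.7 CPM in stretch 2, 4, 6, 8 and 10. Static 1 and 3 stood above all other libraries, and static 5, 7 and 9 lay within the stretch range. The log2 estimate for ETV5 was -0.29 ± 0.21 (interval -0.72 to 0.15, edgeR adjusted p = 0.498). The ETV5 estimate was -0.13 without static 3. The annotated bounds of ETV5 overlap those of DGKG on the same strand, which is also in the table, so how reads were divided between them is uncertain.

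IER3 (ENSG00000137331, chromosome 6, 30743199 to 30744554, minus strand), an early response gene that regulates survival and is also induced by NF-kB, was at 128, 57.7, 99.0, 64.3 and 101 CPM in static 1, 3, 5, 7 and 9. It was at 128, 97.6, 125, 94.5 and 98.3 CPM in stretch 2, 4, 6, 8 and 10. Static 3 and 7 lay below every stretch library, and static 1, 5 and 9 lay among them. The log2 estimate for IER3 was 0.28 ± 0.18 (interval -0.11 to 0.66, edgeR adjusted p = 0.471). The IER3 estimate was 0.43 without static 1 and 0.15 without static 3.

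**Figure D3:**
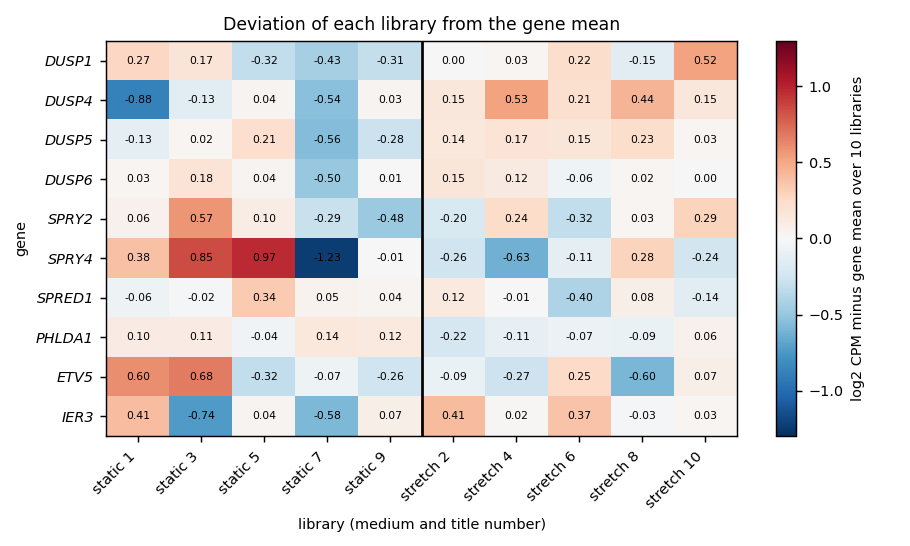
Log2 CPM of each gene (rows) in each library (columns) minus the gene's mean over the 10 libraries; red is above and blue below that mean, and the black line separates static from stretch libraries. Static 7 is lowest for DUSP1, DUSP5, DUSP6 and SPRY4 and highest for PHLDA1.

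Static 7 was the lowest of the 10 libraries for 4 genes, DUSP1, DUSP5, DUSP6 and SPRY4, and the highest for PHLDA1, and it lay below the median for 7 of the 10 genes. Static 3 was highest for DUSP6, SPRY2 and ETV5 and lowest for IER3. Each of the other 9 libraries was lowest for at most 1 gene. Static 7 also tended to have the largest values among static libraries in the check for repeat deposits described below. Its chi-square per degree of freedom with static 1, 3, 5 and 9 was 15.99, 24.48, 19.38 and 17.85. Pairs of the other static libraries had 6.05 to 16.36. Whether the static 7 pattern is specific to the 10 genes, and the part of depth in these values, was not tested. The CV over libraries was larger with static than with stretch medium for 8 of the 10 genes, with SPRED1 and PHLDA1 the exceptions. This was noticed in the data and was not tested, and the same share over all genes was not computed.

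Whether the genes varied together between libraries was examined over their 45 pairs, with Pearson's r and Spearman's rho of log2 CPM over 10 libraries and permutation tests of 100000 resamples. No pair passed a Benjamini-Hochberg adjusted p of 0.05 by either measure, and 5 pairs had an unadjusted p under 0.05 for r. The share of pairs of other genes at that p was not computed. Of the 5 pairs, DUSP5 and PHLDA1 varied in opposite directions (r = -0.75, permutation p = 0.00808, adjusted p = 0.350; rho = -0.81, permutation p = 0.00738, adjusted p = 0.144). Their r was -0.74 without static 7 and 9, the libraries farthest from the DUSP5 median, and -0.57 once group means were subtracted.

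DUSP4 and PHLDA1 had r = -0.67 (permutation p = 0.0322, adjusted p = 0.350) and rho = -0.77 (permutation p = 0.0128, adjusted p = 0.144). Their r was -0.58 without static 1 and 7 and -0.28 with group means subtracted. DUSP1 and SPRED1 had r = -0.65 (permutation p = 0.0389, adjusted p = 0.350) and rho = -0.82 (permutation p = 0.00628, adjusted p = 0.144), with r = -0.72 without static 7 and stretch 10 and -0.58 with group means subtracted. DUSP4 and DUSP5 had r = 0.68 (permutation p = 0.0343, adjusted p = 0.350) and rho = 0.78 (permutation p = 0.0104, adjusted p = 0.144), with r = 0.50 without static 1 and 7 and 0.44 with group means subtracted. DUSP5 and DUSP6 had r = 0.74 (permutation p = 0.0385, adjusted p = 0.350) but rho = 0.30 (permutation p = 0.405, adjusted p = 0.973), and r = -0.060 without static 7 and 9, so that this relation rests on those libraries. With group means subtracted, r for DUSP5 and DUSP6 was 0.76. DUSP6 and SPRY4, a pair of inhibitors often used together as a readout, had r = 0.62 over 10 libraries (permutation p = 0.0591, adjusted p = 0.387; rho = 0.37, permutation p = 0.298, adjusted p = 0.940) with r = -0.32 without static 3 and 7 and 0.77 with group means subtracted. With group means subtracted, the highest r were 0.91 for DUSP5 and SPRY4 and 0.86 for DUSP1 and ETV5. As measured, DUSP5 and SPRY4 had r = 0.51 (permutation p = 0.139, adjusted p = 0.548) and rho = 0.24 (permutation p = 0.515, adjusted p = 0.973), with r = -0.11 without static 7 and 9. DUSP1 and ETV5 had r = 0.59 (permutation p = 0.0724, adjusted p = 0.407) and rho = 0.62 (permutation p = 0.0619, adjusted p = 0.464), with r = 0.80 without static 7 and stretch 10.

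**Figure D4:**
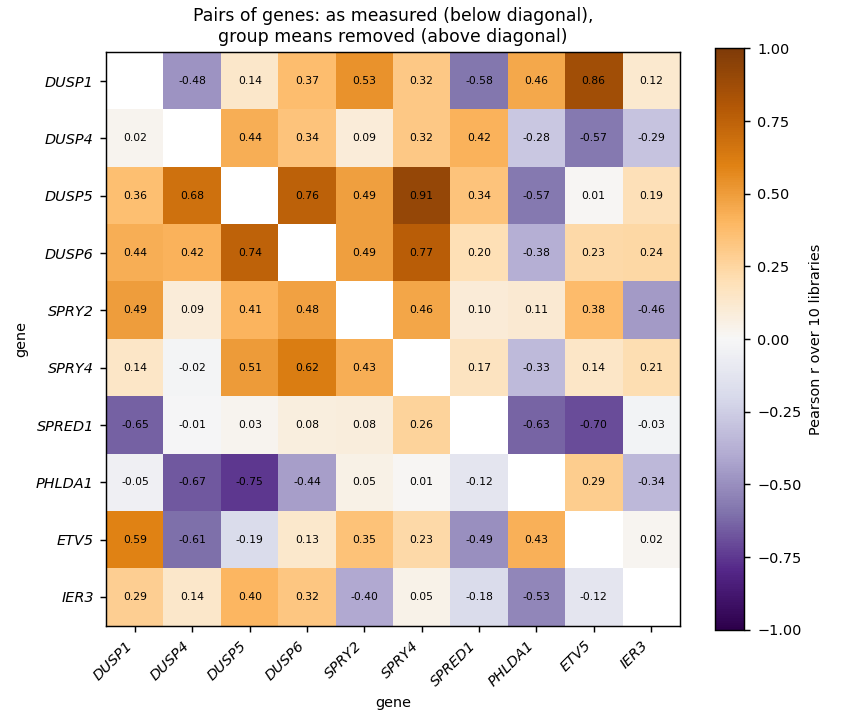
Pearson's r of log2 CPM for each pair of genes over 10 libraries, below the diagonal as measured and above it after subtracting each group's mean; orange is positive and purple negative. DUSP5 is positive with DUSP6 (0.74) and DUSP4 (0.68) and negative with PHLDA1 (-0.75).

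Among all genes tested, those whose log2 CPM was most like that of DUSP6 over the 10 libraries were not other feedback genes. The 10 genes were left out when these were picked. By r with DUSP6 over all genes tested, DUSP5 (r = 0.74) would have ranked 271 and SPRY4 (r = 0.62) 807. The highest Pearson's r belonged to 2 identifiers without a symbol, ENSG00000267318 (r = 0.92, rho = 0.30) and ENSG00000235233 (r = 0.92, rho = 0.44), followed by the transmembrane protein gene TM7SF3 (r = 0.92, rho = 0.88), the phosphatase gene CTDSP1 (r = 0.92, rho = 0.82) and the zinc finger gene ZBTB40 (r = 0.92, rho = 0.77). Without static 3 and 7, the libraries farthest from the DUSP6 median, r was 0.23 and 0.49 for the identifiers without a symbol, 0.84 for TM7SF3, 0.92 for CTDSP1 and 0.72 for ZBTB40. These values are descriptions over 10 libraries picked as the highest of 10968, and libraries share depth and handling.

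The rest of the pathway was examined through 6 lists that hold no gene of the 10. Of 23 tested genes for proteins of the cascade itself, 13 had estimates above 0, with a median log2 fold change of 0.018, and 5 had an unadjusted p under 0.05 (3 higher, 2 lower), against the 16.4% of all genes. PTPN11, the gene of the phosphatase SHP2 that promotes RAS activation, had means of 251 ± 19.6 and 183 ± 28.1 CPM (SD, n = 5 each), static first, with ranges of 229 to 278 and 144 to 218 CPM that did not overlap. Its log2 fold change was -0.45 ± 0.12, with an adjusted p of 0.114 in edgeR and 0.0186 in DESeq2. RPS6KA3, which encodes the ERK-activated kinase RSK2, had an estimate of 0.47 ± 0.17 (adjusted p = 0.192 in edgeR), and the docking protein gene GAB1 one of 0.31 ± 0.12 (adjusted p = 0.217 in edgeR). The genes of MEK1 and MEK2, MAP2K1 and MAP2K2, had estimates of 0.053 and 0.36 (edgeR adjusted p = 0.378 for MAP2K2), and both were named after their values were seen.

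Of 11 tested scaffolds and regulators of RAS or RAF, with a median log2 fold change of -0.016, 2 had an unadjusted p under 0.05, 1 in each direction, which is near the 16.4% of all genes. They were DAB2IP, a RAS GTPase-activating protein gene (0.31 ± 0.14, adjusted p = 0.273 in edgeR), and the 14-3-3 protein gene YWHAB (-0.23 ± 0.10, adjusted p = 0.286 in edgeR). Of 8 other feedback inhibitors, 0 had an unadjusted p under 0.05 (16.4% of all genes did), and 5 had estimates below 0, with a median of -0.11. Among 20 other ERK-responsive genes, with a median of 0.010, 0 had a higher and 2 a lower level at an unadjusted p under 0.05, a smaller share than the 16.4% of all genes. They were MCL1, an anti-apoptotic BCL2 family gene, at 307 ± 45.7 and 242 ± 15.5 CPM (-0.34 ± 0.11, adjusted p = 0.161 in edgeR), and the AP-1 subunit gene JUNB (-0.24 ± 0.11, adjusted p = 0.289 in edgeR). PLAUR, which encodes the urokinase receptor, was the 1 gene of this list whose groups did not overlap, with means of 296 and 328 CPM (edgeR adjusted p = 0.437), where 3.72% of all genes did not overlap; it was named after its values were seen.

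Of 9 other dual-specificity phosphatase genes, 0 had an unadjusted p under 0.05 (16.4% of all genes did), and the median log2 fold change was 0.11. Of 12 kinases of the p38 and JNK branches, on which DUSP1 and DUSP4 also act, 1 had an unadjusted p under 0.05, again beside 16.4% of all genes. It was MAP2K7, which activates JNK, with means of 59.5 ± 13.4 and 86.9 ± 11.8 CPM (SD, n = 5 each), static first. Its ranges of 39.0 to 76.5 and 75.4 to 101 CPM overlapped, and its log2 fold change was 0.55 ± 0.15 (adjusted p = 0.129 in edgeR and 0.0349 in DESeq2). In all 6 lists 0 genes passed an adjusted p of 0.05 in edgeR, and in DESeq2 PTPN11 and MAP2K7 did, a share close to the 2.51% that DESeq2 called over all genes.

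**Figure D5:**
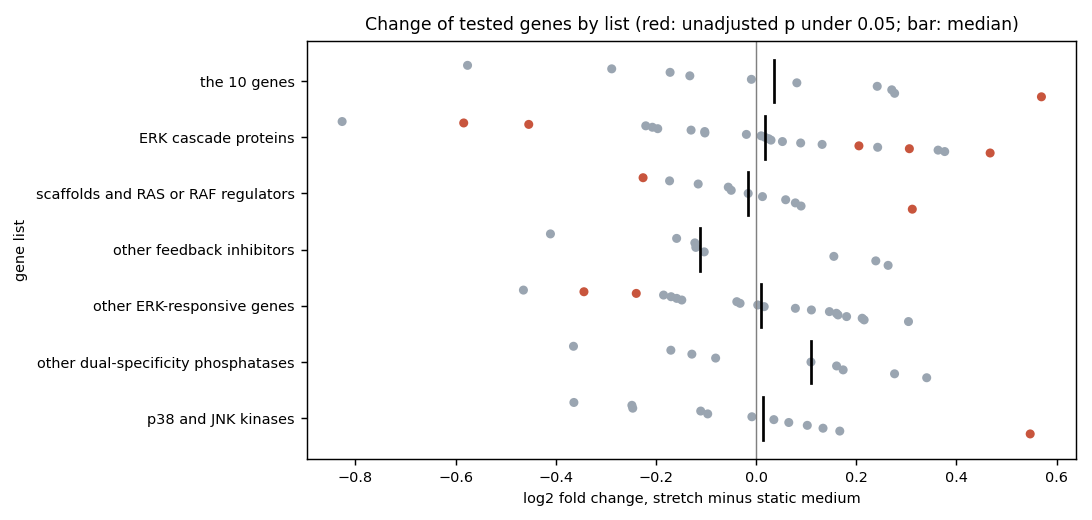
Log2 fold change (stretch minus static medium) of every tested gene of the 10 genes and of 6 pathway lists; each point is 1 gene, red points had an unadjusted p under 0.05 in edgeR, and black bars are medians. The medians of all rows lie between -0.11 and 0.11.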

How the data were processed

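Per the labels' protocols, RNA of 10 MRC5 samples was extracted with Trizol and made into libraries with Ion Torrent's AmpliSeq human transcriptome kit. The kit amplifies targets by PCR and no molecular identifiers are mentioned, so counts are of amplified reads, and floors and counting CVs hold for counting error alone. The authors' deposited table holds unscaled whole-number counts by Ensembl identifier. The submitters' processing notes name fastp (0.20.1), Salmon (1.9) and the build hg38/GRCh38; for their roles, the annotation and strand, the entry is: not given in the sources used here. Columns were matched to samples by the number in the title. Every gene in the table was above 0 in at least 5 libraries. Symbols were found for 13831 identifiers, and positions are from GENCODE 29 (GRCh38).

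The test used edgeR 4.0.16 in R 4.3.3: filterByExpr (minimum count 10, minimum total 15), TMM, and the quasi-likelihood test, signed as stretch minus static, with p-values adjusted by Benjamini-Hochberg over 10968 genes and a threshold of 0.05. Log2 CPM carried a prior count of 2. Estimates are given ± SE, with 95% confidence intervals. Single genes were also compared by exact two-sided permutation of log2 CPM over all arrangements, with no adjustment. DESeq2 1.42.0 and limma-voom (limma 3.58.1) were alternatives, run on the same filtered genes; DESeq2 gave no adjusted p for 1278 genes, which count as not called. The scripts were tested on simulated data. The chi-square per degree of freedom between libraries of 1 group was 6.05 or more, so none was counted as a repeat deposit. Separate cultures are not stated in the labels: p-values reflect only how these libraries vary, and that variation may be technical.

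The 10 genes, the pathway lists and the tests were chosen with earlier results of these data known. By rule, the genes named were the 10, up to 3 per pathway list with the smallest unadjusted p under 0.05, and the 5 most correlated with DUSP6. MAP2K1, MAP2K2 and PLAUR were added after their values were seen, and marker genes are named to describe their lists. Antisense genes that overlap DUSP1, DUSP6, SPRY4, PHLDA1, ETV5 and IER3 were not analysed here. The result for 1 other gene of the pathway lists is not reported here.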

Additional observations from a re-analysis of the deposited data

Results flagged for a closer look

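In each group of 5 libraries, a library was singled out where its gap to the nearest library exceeded 0.71 of the group's range (Dixon's critical value for 5). Gap and range were taken in log2 CPM, and the values below are given in CPM. The flags were not examined on the CPM scale. This happened in 3 of 20 groups (10 genes, 2 media). For normally distributed values the rule flags about 1 in 20 groups. The share of groups flagged over all genes tested was not computed. DUSP6 in static 7 was the lowest of its group at 51.8 CPM. SPRED1 in static 5 was the highest of its group at 72.9 CPM. PHLDA1 in static 5 was the lowest of its group at 1761 CPM.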

How the results depend on the processing

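No paired analysis was run. Static and stretch libraries share no title number, and the titles do not state whether neighbouring numbers are pairs. In each of 19 alternatives 0 of the 10 genes were called over all genes. The median log2 fold change of the 10 was 0.036 in the main fit. It ranged from -0.049 to 0.14 over the fits that left out a library and from 0.020 to 0.096 otherwise. The mean log2 CPM of the 10 had an SD of 0.16 between libraries within a group, which is a different measure and not the error of this median. SPRY4 was filtered out in the thinned table and with at least 50 counts in 5 libraries. The count of the 10 at an unadjusted p under 0.05 was 1, and it was 2 with upper quartile scaling, library totals and DESeq2 (PHLDA1 added) and limma-voom (DUSP5 added), and 0 after thinning to the smallest total, which also left 1 gene, PHLDA1, in place of 2 with an exact permutation p under 0.05. With a library left out, this count was 1 to 3: 3 without static 1 (DUSP1 and IER3 added) and without static 5 (DUSP5 and PHLDA1 added), 2 without static 7 (SPRY4 added) and without stretch 10 (PHLDA1 added). The number with an exact permutation p under 0.05 was 2 to 3 in these fits. In the main edgeR fit, 16.4% of all genes had an unadjusted p under 0.05. The matching shares over all genes in the alternatives, and for the permutation test in any fit, were not computed. The sign of SPRY2 turned in limma-voom (0.013) and without static 3 (0.16), static 5 (0.0060), stretch 2 (0.042) or stretch 6 (0.069), within -0.11 to 0.16 over the fits that left out a library, and that of DUSP6 without static 7 (-0.016). The other 8 genes kept their sign in every alternative that tested them. Over all genes edgeR called 0, against 275 in DESeq2, 1 in limma-voom, 61 at an adjusted p of 0.1, 2 after thinning, and 0 to 39 with a library left out (39 without stretch 4, 2 without stretch 6, 1 without stretch 10). Of the 45 pairs, 0 passed in each of 12 alternatives. The cause of these shifts was not tested. Depth limits SPRY4 and DUSP4 most, whose counts were 5 to 32 and 19 to 84.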
